A study of Mus musculus with 24 samples.

Results

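The genes described here are the ligands and receptors of the VEGF and angiopoietin systems in the mouse prefrontal cortex (PFC). They were chosen by name: Vegfa, Angpt1 and Angpt2 (ligands), Flt1, Kdr and Flt4 (VEGF receptors), Tek and Tie1 (angiopoietin receptors), and Eng and Nrp1 (co-receptors). Of these 10 genes, 8 were found among the 14074 genes of the table, and Angpt2 and Flt4 were not analysed here. The RNA-seq libraries came from 24 male C57BL/6 mice aged 10 to 12 weeks, 1 library per mouse, in 6 groups of 4. Control mice were unstressed and housed alone before the experiment. PS (passive coping) and AS (active coping) mice had been defeated by CD1 aggressors for 30 days, and were separated by clustering of their own behaviour within 1 cohort, so that each phenotype is a behavioural class and not a strain. In each of the 3 phenotypes, 4 mice received saline and 4 received dexamethasone (DEX, 2 mg/kg), a synthetic agonist of the glucocorticoid receptor, 24 h after the last defeat session in the stressed mice. Tissue was taken 6 h after injection. The dissected block held prelimbic, infralimbic, anterior cingulate, orbital and secondary motor cortex, which the study counts as parts of the PFC.

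VEGF-A is a secreted growth factor that binds 2 tyrosine kinase receptors on endothelial cells: KDR (VEGFR2) carries most of the growth and permeability signal, and FLT1 (VEGFR1), which also exists as a secreted form, holds VEGF-A away from it. Angiopoietin-1, released by mural and other perivascular cells, activates TEK (TIE2) and keeps vessels quiescent, while TIE1 is a partner of TEK with no well-defined ligand of its own. Endoglin (Eng) is a co-receptor for BMP and TGF-β ligands on endothelium, and neuropilin-1 (Nrp1) is a co-receptor for VEGF-A and for class 3 semaphorins, made by neurons as well as by vessels. In adult cortex, Vegfa RNA comes mainly from astrocytes and other cells outside the vessel wall, so ligand and receptor RNA in a tissue block largely report on different cells.

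DEX lowered the RNA of 4 endothelial receptors in AS mice, Tek, Tie1, Eng and Flt1, and Kdr did not pass the test there. Tek alone passed the test in PS animals, and none of these 4 passed it in controls. Nrp1 fell with DEX in control mice and had values below 0 that did not pass the test in PS and AS mice, and none of its interactions was called. Vegfa and Angpt1 passed no test in any of the 9 comparisons, and chronic stress without DEX changed none of the 8 genes past the threshold. A gene was called changed at a Benjamini-Hochberg adjusted p under 0.1 in a limma model of all 14074 genes. The difference in DEX response between AS and control mice passed this threshold for none of the 8 genes. In bulk tissue, fewer endothelial cells and less RNA per endothelial cell cannot be told apart, and this holds for every receptor value given here.

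The 24 libraries held 21121869 to 59439645 reads on genes, and every value of the 8 genes rested on at least 114 reads. Depth was not even over the groups: the median was 34242532 and 37876626 reads in saline-treated and DEX-treated AS mice, and 22869703 to 24187702 in the other 4 groups. The DEX labels were checked with Fkbp5 and Tsc22d3, both induced by the glucocorticoid receptor. Fkbp5 rose in every DEX group, from 761 to 1088 normalized counts in the 12 saline libraries to 2931 to 4198 in the 12 DEX libraries. Tsc22d3 ranged from 1085 to 1585 with saline and from 2359.5 to 2969.7 with DEX, again with no overlap. The neuronal genes Slc17a7 and Snap25 had at least 41898 and 70779.8 normalized counts in every library, and of 5 choroid plexus markers 1 was among the genes of the table.

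Levels between genes were compared per length, as reads on a gene divided by its exon length and by the depth of the library (RPKM). The exon length merged all annotated exons of a gene, whichever transcripts were present. Vegfa was the highest of the 8, with a mean of 16.5 RPKM over the 24 libraries (range 13.6 to 19.3). Eng (mean 5.95 RPKM) and Flt1 (4.68 RPKM) followed, with Eng above Flt1 in 23 of 24 libraries. That order rested on the merged lengths of 4048 bases for Eng and 13504 for Flt1. Without division by length, Flt1 had the higher mean, at 1756 normalized counts against 669 for Eng. Tek and Tie1 lay close together at means of 2.37 and 2.17 RPKM, and Tek was the higher in 19 of 24 libraries. Nrp1 (1.357 RPKM), Kdr (1.34 RPKM) and Angpt1 (1.23 RPKM) formed the lowest level. Among these 3 the order was not steady, since Nrp1 exceeded Kdr in 14 of 24 libraries and Kdr exceeded Angpt1 in 16 of 24. On this scale the VEGF receptor with the weak kinase, Flt1, stood 3.5 times above Kdr. Vegfa also varied least, with its highest library 1.37 times its lowest, against 5.35 times for Tek.

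**Figure D1:**
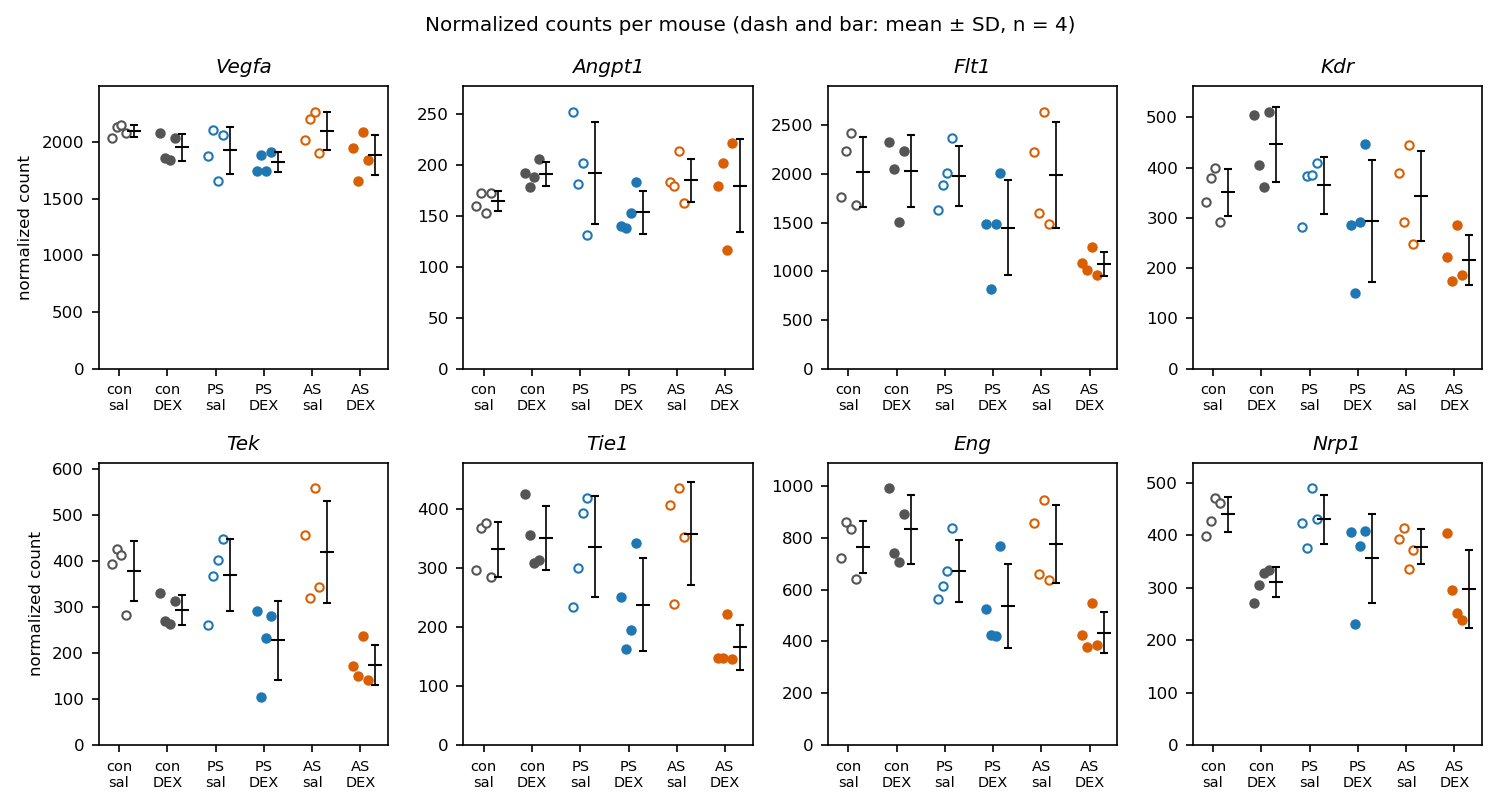
Normalized counts (vertical axes, each starting at 0) of 8 genes in 24 mice, by phenotype (con, control) and treatment (sal, saline), with open circles for saline, filled circles for DEX, and a dash and bar for the mean ± SD of 4 mice. In AS mice the 4 DEX libraries lie below all 4 saline libraries for Flt1, Tek, Tie1 and Eng, while saline and DEX overlap within each phenotype for Vegfa.

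The ligands are given first. Vegfa (chromosome 17, 46016993 to 46032369, minus strand, GRCm38) encodes VEGF-A. In controls it was at 2033, 2135, 2145 and 2081 normalized counts with saline and at 2074, 1859.6, 1844 and 2031 with DEX. In PS mice the values were 1875, 2106, 1656 and 2057 with saline and 1743, 1887, 1743 and 1909.7 with DEX. AS mice gave 2012, 2205, 2266 and 1903 with saline and 1946, 1658, 2085 and 1844 with DEX. Saline and DEX libraries overlapped in each phenotype, and DEX means were slightly lower in all 3. The log2 fold change with DEX was -0.11 (95% interval -0.26 to 0.05, adjusted p = 0.581) in controls, -0.07 (-0.23 to 0.08, adjusted p = 0.800) in PS and -0.16 (-0.31 to 0.0023, adjusted p = 0.283) in AS mice. A fall of Vegfa larger than 0.31 on the log2 scale lay outside all 3 intervals.

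Angpt1 (chromosome 15, 42424723 to 42676977, minus strand) encodes angiopoietin-1, the activating ligand of TEK. Control mice had 159, 172, 153 and 173 normalized counts with saline and 192, 178, 188 and 206 with DEX. In PS mice the counts were 252, 181, 202 and 131 with saline and 139.6, 138, 153 and 183 with DEX. In AS mice they were 183, 179.6, 214 and 163 with saline and 179, 202, 116 and 221 with DEX. The 4 DEX controls lay above the 4 saline controls without overlap, but the log2 fold change of 0.22 ± 0.17 (SE) did not pass the test (adjusted p = 0.623). PS (-0.29 ± 0.17, adjusted p = 0.510) and AS mice (-0.07 ± 0.17, adjusted p = 0.886) gave values below 0 with overlapping libraries.

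Among the VEGF receptors, Flt1 (chromosome 5, 147561604 to 147726011, minus strand) was measured with the most reads. Controls had 1757, 2239, 2417 and 1683 normalized counts with saline and 2329.7, 2046, 1502 and 2235 with DEX. PS mice had 1633, 1889, 2007 and 2374 with saline and 1486, 819.5, 1481 and 2009.9 with DEX. AS mice had 2220.1, 1598, 2639 and 1483 with saline and 1081, 1014, 1244 and 964 with DEX. All 4 DEX-treated AS mice lay below all 4 saline-treated AS mice, the PS groups overlapped, and the control groups covered the same range. The mean in AS mice went from 1985 ± 543 (SD, n = 4) to 1076 ± 122 (n = 4), a log2 fold change of -0.85 ± 0.21 (SE) with an adjusted p of 0.0151. In PS mice the log2 fold change was -0.50 ± 0.21 (adjusted p = 0.250), and in controls its 95% interval was -0.43 to 0.43 (adjusted p = 0.9998).

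Kdr (chromosome 5, 75932827 to 75978458, minus strand), the main signalling receptor, was measured at a lower level than Flt1. With saline, controls had 332, 379, 398 and 292 normalized counts, and with DEX 505, 406, 361 and 511. PS mice had 282, 383, 385 and 410.0 with saline and 285, 149.9, 293 and 446 with DEX. AS mice had 389, 292, 445 and 247 with saline and 222, 174, 285 and 185 with DEX. In AS mice 3 of 4 DEX values lay below every saline value, and the groups overlapped through the DEX mouse at 285. Kdr missed the threshold in AS mice, with a log2 fold change of -0.65 ± 0.24 (95% interval -1.14 to -0.16) and an adjusted p of 0.114. On the recovered reads it was called in AS mice by edgeR (adjusted p = 0.0906) and by DESeq2 (adjusted p = 0.0421), and over all alternatives its adjusted p ran from 0.0421 to 0.942. Kdr was also called in AS mice without the DEX-treated PS mice 34 or 56, the saline-treated AS mouse 44 or the DEX-treated AS mouse 60 (adjusted p from 0.0385 to 0.0694). It was 0.34 ± 0.24 above saline in DEX-treated controls (adjusted p = 0.552) and -0.40 ± 0.24 in PS mice (adjusted p = 0.514).

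Tek (chromosome 4, 94739289 to 94874976, plus strand), the receptor of the angiopoietins, showed the largest fold change of the 8 genes. Controls had 393, 425, 413 and 283 normalized counts with saline and 329, 269, 262 and 313 with DEX. PS mice had 261, 367, 402 and 447 with saline and 290.3, 104, 233 and 281 with DEX. AS mice had 456, 318, 558 and 342 with saline and 171, 149, 236 and 142 with DEX. DEX values were the lower ones in each phenotype, with no overlap in AS mice and partial overlap in PS and control mice. Tek fell by 1.25 ± 0.25 on the log2 scale in AS mice (-1.25, 95% interval -1.77 to -0.73, adjusted p = 0.00280), from 418 ± 111 to 174 ± 43.0 normalized counts. Its fall in PS mice was smaller (-0.78 ± 0.25, adjusted p = 0.0944). That call depended on single libraries. Without the DEX-treated PS mouse 34, which had the lowest count of all 24 mice, the value was -0.44 with an adjusted p of 0.365. Mouse 34 also had the lowest mean log2 level of its group over 20 endothelial markers, -0.588 relative to the mean of the 24 libraries against -0.132 to 0.250 in the other 3 DEX-treated PS mice, and over 12 mural cell markers (-0.740 against -0.318 to 0.309). The part of these markers in the value of mouse 34 was not tested. The call was also lost without the saline-treated PS mice 28, 62 or 68 (-0.77, -0.73 and -0.68, adjusted p from 0.184 to 0.242) or the DEX-treated PS mouse 52 (-0.82, adjusted p = 0.122). Without the saline controls 106, 107 or 109, the DEX controls 108, 112 or 122, the saline-treated AS mouse 8 or the DEX-treated AS mice 38 or 42 the value stayed at -0.78, and the adjusted p moved to between 0.102 and 0.111. Without the DEX-treated PS mouse 56, 4 genes were called in PS mice (Flt1, Tek, Tie1 and Eng), where 321 of all 14074 genes were called higher and 384 lower. In controls the log2 fold change was -0.36 ± 0.25 (adjusted p = 0.563).

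Tie1 (chromosome 4, 118471191 to 118490061, minus strand), the partner of TEK, fell in AS mice and was not called in controls. Controls had 297, 368, 376 and 285 normalized counts with saline and 424, 356, 309 and 314 with DEX. PS mice had 233, 299, 393 and 418 with saline and 251, 162, 195 and 342 with DEX. AS mice had 406, 238, 435 and 352 with saline and 148, 147, 222 and 145 with DEX. The 4 DEX-treated AS mice were below every saline-treated AS mouse, and 3 of them lay within a few counts of each other. The log2 fold change was -1.10 ± 0.22 in AS mice (95% interval -1.54 to -0.65, adjusted p = 0.00255) and -0.52 ± 0.22 in PS mice (adjusted p = 0.255). In controls it was 0.08 ± 0.22 (95% interval -0.37 to 0.53, adjusted p = 0.922).

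Eng (chromosome 2, 32646595 to 32682669, plus strand) encodes endoglin. Controls had 724, 861, 833 and 641 normalized counts with saline and 991, 741, 704 and 891 with DEX. PS mice had 564, 612, 673 and 839 with saline and 527, 426, 422 and 769 with DEX. AS mice had 855, 661, 946 and 638 with saline and 423, 379, 549 and 385 with DEX. Again the AS groups were separate and the PS and control groups overlapped. Eng fell by 0.83 ± 0.18 on the log2 scale in AS mice (-0.83, adjusted p = 0.00452). Its log2 fold change was -0.35 ± 0.18 in PS mice (adjusted p = 0.386) and 0.12 ± 0.18 in controls (adjusted p = 0.839).

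Nrp1 (chromosome 8, 128358604 to 128503363, plus strand) encodes the co-receptor neuropilin-1. Controls had 399.5, 427, 471 and 463 normalized counts with saline and 272, 306, 329 and 335 with DEX. PS mice had 424, 376, 489.9 and 432 with saline and 407, 231, 379 and 408 with DEX. AS mice had 392, 414, 335 and 372 with saline and 404, 295, 253 and 238 with DEX. The control groups were separate, whereas 1 DEX-treated AS mouse reached 404 and the AS groups overlapped. Nrp1 fell by 0.50 ± 0.16 on the log2 scale in controls (-0.50, adjusted p = 0.0707), from 439.9 ± 33.0 to 310.3 ± 28.6 normalized counts. The log2 fold change was -0.30 ± 0.16 in PS mice (adjusted p = 0.418) and -0.37 ± 0.16 in AS mice (adjusted p = 0.191), so that all 3 phenotypes had values below 0. Its DEX response was not shown to differ between phenotypes, with a log2 difference of 0.13 ± 0.22 for AS against control mice (adjusted p = 0.856). Nrp1 was also called in AS mice in 2 of the 24 fits that left out 1 library, without the DEX-treated PS mouse 34 (adjusted p = 0.0750) or the DEX-treated AS mouse 38 (-0.53, adjusted p = 0.0407). The call in controls was lost (adjusted p up to 0.204) in 5 of the 24 fits that left out 1 library, those without the saline controls 107, 109 or 117 or the DEX controls 101 or 108.

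**Figure D2:**
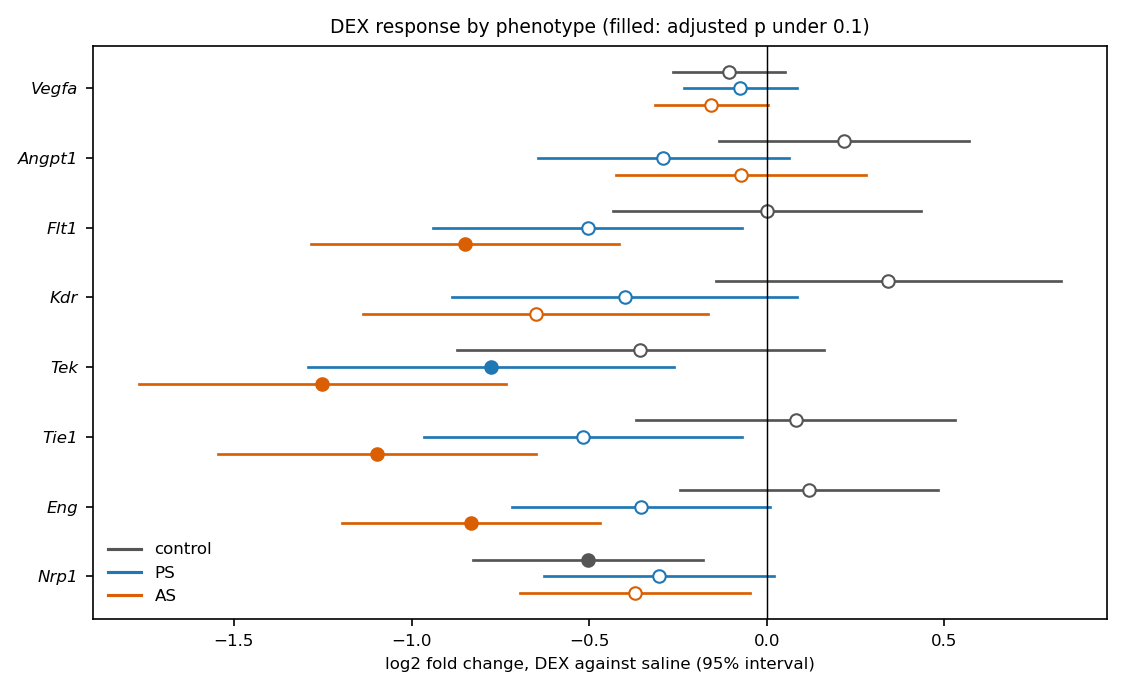
Log2 fold change of 8 genes (horizontal axis) between DEX and saline in each phenotype (control, PS, AS), with lines for the 95% interval and filled points for an adjusted p under 0.1. Flt1, Tek, Tie1 and Eng are filled in AS mice with Tek at -1.25, Tek in PS mice and Nrp1 in controls, and Vegfa lies near 0 in all 3.

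Counted over the 8 genes, DEX lowered 4 in AS mice, 1 in PS mice and 1 in controls, and raised none past the threshold. Of all genes tested, 8.77% were called in AS mice, 5.36% in PS mice and 6.49% in controls. The groups did not overlap for 4 of the 8 genes in AS mice, 0 in PS mice and 2 in controls, against 9.02%, 10.1% and 10.1% of all genes. The AS count was above these shares, and the PS and control counts rested on 1 gene each. The 8 genes were chosen with earlier results of these data known, and the 4 called in AS mice varied together from mouse to mouse. They are therefore not 4 separate results, and the count was not tested against the shares. All 8 log2 fold changes were below 0 in PS and in AS mice, with medians of -0.38 and -0.74, while in controls 4 were above 0 and 4 below (median 0.04). The median over all genes was -0.0088, -0.0026 and 0.0024 in control, PS and AS mice.

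The interactions asked whether the DEX response differed between phenotypes. For AS against control mice the log2 difference in response was -1.18 ± 0.31 for Tie1 and -0.95 ± 0.25 for Eng, each with an adjusted p of 0.110, just outside the threshold. Kdr gave -0.99 ± 0.33 (adjusted p = 0.180), Tek -0.89 ± 0.35 (0.248 adjusted) and Flt1 -0.85 ± 0.30 (0.202 adjusted). Thus limma called 0 of 8 genes in this interaction, with 5 at an unadjusted p under 0.05, where 0.348% and 13.5% of all genes reached these limits. The count depended on the tool and on single libraries, since edgeR called 0, DESeq2 called 3 (Kdr, Tie1 and Eng), edgeR on thinned reads called 1 (Eng), and leaving out 1 library gave 0 to 4. The share of all genes called moved as well, to 0.547% with edgeR, 3.18% with DESeq2 and 0.917% on thinned reads. The count was 4 without the DEX control 112 or the saline-treated AS mouse 44, where 4.72% and 4.87% of all genes were called. It was 3 without the DEX-treated PS mouse 34 (1.22% of all genes), and 2 without the DEX-treated PS mouse 56 (1.12%), the saline-treated AS mouse 14 (1.12%) or the DEX-treated AS mouse 60 (1.57%). For PS against control mice limma called 0 genes, with 2 at an unadjusted p under 0.05 (Kdr at -0.74 ± 0.33 and Angpt1 at -0.51 ± 0.24), where 0% and 9.98% of all genes reached these limits. For AS against PS mice it called 0, with 0 at an unadjusted p under 0.05, where 0% and 2.44% of all genes did, and all 5 endothelial receptors (Flt1, Kdr, Tek, Tie1 and Eng) had values below 0, from -0.58 for Tie1 to -0.25 for Kdr. Neither edgeR nor DESeq2 called any of the 8 in these latter 2 interactions. A difference in receptor response between AS and PS mice was therefore not shown.

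With saline alone, the 3 phenotypes had similar levels of all 8 genes. In PS against control mice, limma called 0 of 8, with 0 at an unadjusted p under 0.05 and 0 without overlap, where 1.51%, 13.1% and 11.3% of all genes reached these limits. In AS against control mice, the counts were likewise 0, 0 and 0, against 0.156%, 11% and 6.51% of all genes. In AS against PS mice, they were 0, 0 and 0, against 0%, 4.77% and 5.22% of all genes. Neither edgeR nor DESeq2 called any of the 8 genes in these 3 comparisons. The log2 fold changes ran from -0.19 (Eng) to 0.19 (Angpt1) in PS and from -0.22 (Nrp1) to 0.16 (Angpt1) in AS mice against controls. The intervals were narrow for Vegfa (PS against control -0.29 to 0.03) and wide for Tek (-0.56 to 0.47).

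Other genes of the pathway were described by lists named for their roles. Of 5 further ligands in the table, Angptl4, an angiopoietin-like inhibitor of lipoprotein lipase and a glucocorticoid target, rose with DEX in controls (1.23, adjusted p = 0.00674) and in AS mice (0.83, adjusted p = 0.0725). Pgf, a ligand of FLT1, rose in controls (0.75, adjusted p = 0.0927). Vegfc, a ligand of FLT4, fell in PS (-0.37, adjusted p = 0.0796) and in AS mice (-0.35, adjusted p = 0.0743). The median of the 5 was 0.00028 in controls, 0.24 in PS and 0.02 in AS mice.

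Of 7 co-receptors and receptor partners, 4 fell with DEX in AS mice (median -0.52). They were Nrp2, a co-receptor for VEGF-C (-0.52, adjusted p = 0.00839), Acvrl1, the type I receptor that works with endoglin (-0.64, adjusted p = 0.0214), Ptprb, the phosphatase that restrains TEK (-0.86, adjusted p = 0.0419), and Tgfbr2 (-0.43, adjusted p = 0.0478). Nrp2 also fell in PS mice (-0.47, adjusted p = 0.0244), 1 of 7 there with a median of -0.29, and 0 of 7 were called in controls (median 0.16). Of 8 Notch and sprouting genes, Jag1, a Notch ligand, fell in AS (-1.03, adjusted p = 0.000511) and in PS mice (-0.66, adjusted p = 0.0307). Unc5b, a netrin receptor of tip cells, fell in all 3 phenotypes (-0.46 in controls, -0.52 in PS and -0.36 in AS mice, adjusted p from 0.00192 to 0.0296). Notch4, an endothelial Notch receptor, rose in controls (0.98, adjusted p = 0.000296) and in PS mice (0.76, adjusted p = 0.00475), with 0.16 in AS mice (adjusted p = 0.666). The medians of this list were 0.03, -0.08 and -0.14 in control, PS and AS mice.

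Of 17 endothelial signalling genes and targets, 6 fell and 0 rose with DEX in AS mice (median -0.26). The 3 with the smallest adjusted p were Adamts1, an antiangiogenic protease (-0.65, adjusted p = 0.00342), Cav1, the caveolae protein (-0.64, adjusted p = 0.0145), and Sox17, an endothelial transcription factor (-0.74, adjusted p = 0.0525). In PS mice 1 fell and 1 rose (median -0.08), and in controls 1 fell and 1 rose (median 0.18). Adamts1 was the one that fell in both (-0.62 and -0.44, adjusted p = 0.00688 and 0.0670). Of 13 hypoxia and VEGF induction genes, 5 rose and 0 fell in controls (median 0.31), led by Ddit4 (0.62), Slc2a1, the glucose transporter of the blood-brain barrier (0.82), and Ndrg1 (0.38). In PS mice 2 rose and 1 fell (median 0.04), and in AS mice 1 rose, Ddit4, and 0 fell (median 0.03). Slc2a1 was also called in the interaction of AS against control mice (-0.85, adjusted p = 0.0744).

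**Figure D3:**
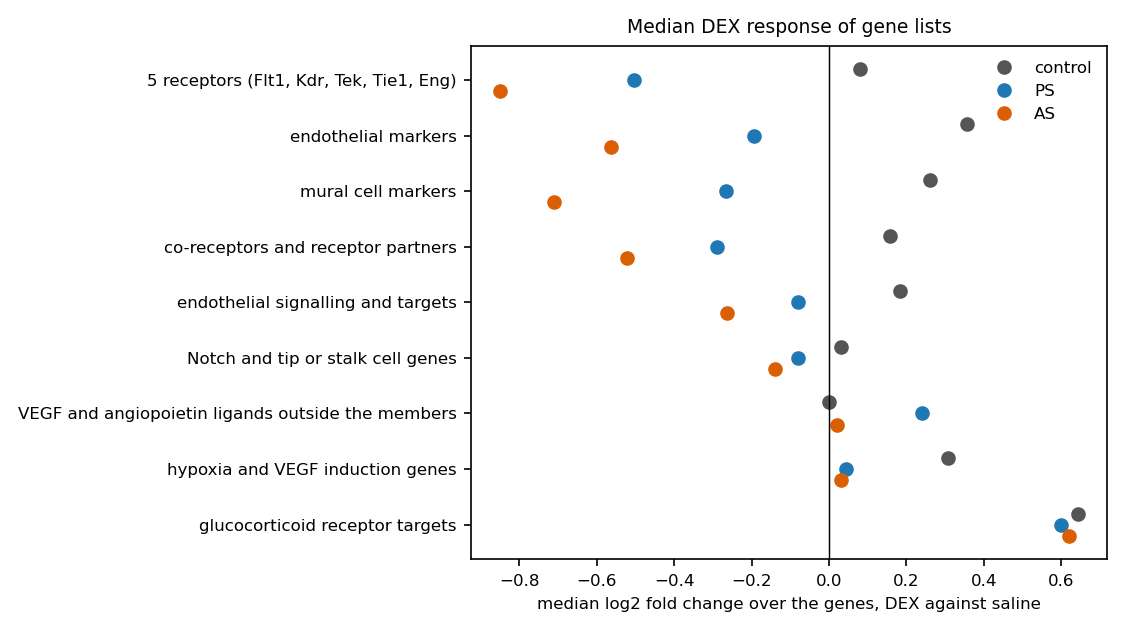
Median log2 fold change with DEX against saline (horizontal axis) over the genes of each list, by phenotype (control, PS, AS). The 5 receptors have medians of 0.08, -0.50 and -0.85, the endothelial markers 0.36, -0.19 and -0.56, and the glucocorticoid receptor targets 0.64, 0.60 and 0.62.

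In PS and AS mice, most markers of the vessel wall had values below 0 with DEX, as the 5 endothelial receptors did. In controls, 18 of 20 endothelial markers were above 0, where the 5 receptors had a median of 0.08 and Tek was at -0.36. Of 20 endothelial markers outside the 8 genes (Ptprb among them), 9 fell and 2 rose with DEX in AS mice (median -0.56), 2 fell and 1 rose in PS mice (median -0.19), and 0 fell and 4 rose in controls (median 0.36). Cdh5, the cadherin of endothelial junctions, and Pecam1, an endothelial adhesion molecule, fell in AS mice (-0.74 and -0.69, adjusted p = 0.0463 and 0.0865), and Cldn5, the tight junction claudin, gave -0.53 (adjusted p = 0.199). In PS mice these 3 gave -0.57, -0.35 and 0.05 (adjusted p = 0.192, 0.599 and 0.964), and in controls 0.17, 0.13 and 0.41 (adjusted p = 0.802, 0.881 and 0.418). The list did not move as a whole: Mfsd2a, the lipid transporter of the blood-brain barrier, rose in all 3 phenotypes (1.21, 1.28 and 1.26, highest adjusted p = 1.12e-06), while Slc16a1, a lactate transporter, fell in PS and AS mice (-0.53 and -0.63, adjusted p = 0.000700 and 0.000109). The summed normalized counts of the 20 markers ranged from 12684 to 18742 in saline-treated and from 11381 to 15710 in DEX-treated AS mice, from 13108 to 16439 and from 11273 to 17595 in PS mice, and from 13157 to 16869 and from 16072 to 21818 in controls. No marker was at 0 in any library, with 74 reads as the lowest value.

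Of 12 mural cell markers (pericytes and smooth muscle), 5 fell with DEX in AS mice (median -0.71), and 0 were called in PS (median -0.27) or control mice (median 0.26). Notch3 (-0.99, adjusted p = 0.000815), Vtn (-0.70, adjusted p = 0.00730) and Acta2 (-1.66, adjusted p = 0.00791) led the list. Their summed counts were 6241 to 10452 in saline-treated and 4809 to 5746 in DEX-treated AS mice. In the AS against control interaction, the 5 endothelial receptors had a median of -0.95. The 20 endothelial markers had a median of -0.85 there (19 below 0, 3 called lower, where 0.348% of all genes were called). For the 12 mural markers it was -0.80 (12 below 0, 0 called). Whether a different amount of vessel in the dissected tissue has a part in the receptor values was not tested by any measurement outside these libraries. In the other direction, 3 of 8 oligodendrocyte markers rose in AS mice (median 0.48), while 1 of 11 neuron markers was called, higher (median 0.05). Of 10 microglia markers 4 fell in AS mice (median -0.21), of 10 astrocyte markers 2 rose and 2 fell (median -0.04), and of 6 leptomeninges and 5 blood markers 0 were called (medians -0.61 and -0.19). In PS mice the medians were 0.15 (oligodendrocyte), 0.08 (neuron), -0.17 (microglia), -0.07 (astrocyte), -0.72 (leptomeninges) and -0.80 (blood). Controls gave -0.30, -0.03, 0.07, 0.15, 0.37 and 0.36 in the same order. Of 14 glucocorticoid receptor targets, 10, 12 and 9 rose and 0 fell in control, PS and AS mice (medians 0.64, 0.60 and 0.62).

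Each receptor was then set beside an endothelial marker score, the mean over the 20 markers of the log2 value centred on the 24 libraries. The score averaged -0.00428 and 0.334 in saline-treated and DEX-treated controls, 0.0121 and -0.132 in PS mice and 0.112 and -0.322 in AS mice. After group means were removed, the 24 libraries gave Pearson r values with the score of 0.867 for Flt1, 0.852 for Kdr, 0.846 for Tek, 0.926 for Tie1 and 0.841 for Eng, and of 0.243 for Vegfa, -0.193 for Angpt1 and 0.142 for Nrp1. These are descriptions, since all genes of a library share its tissue piece and depth.

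**Figure D4:**
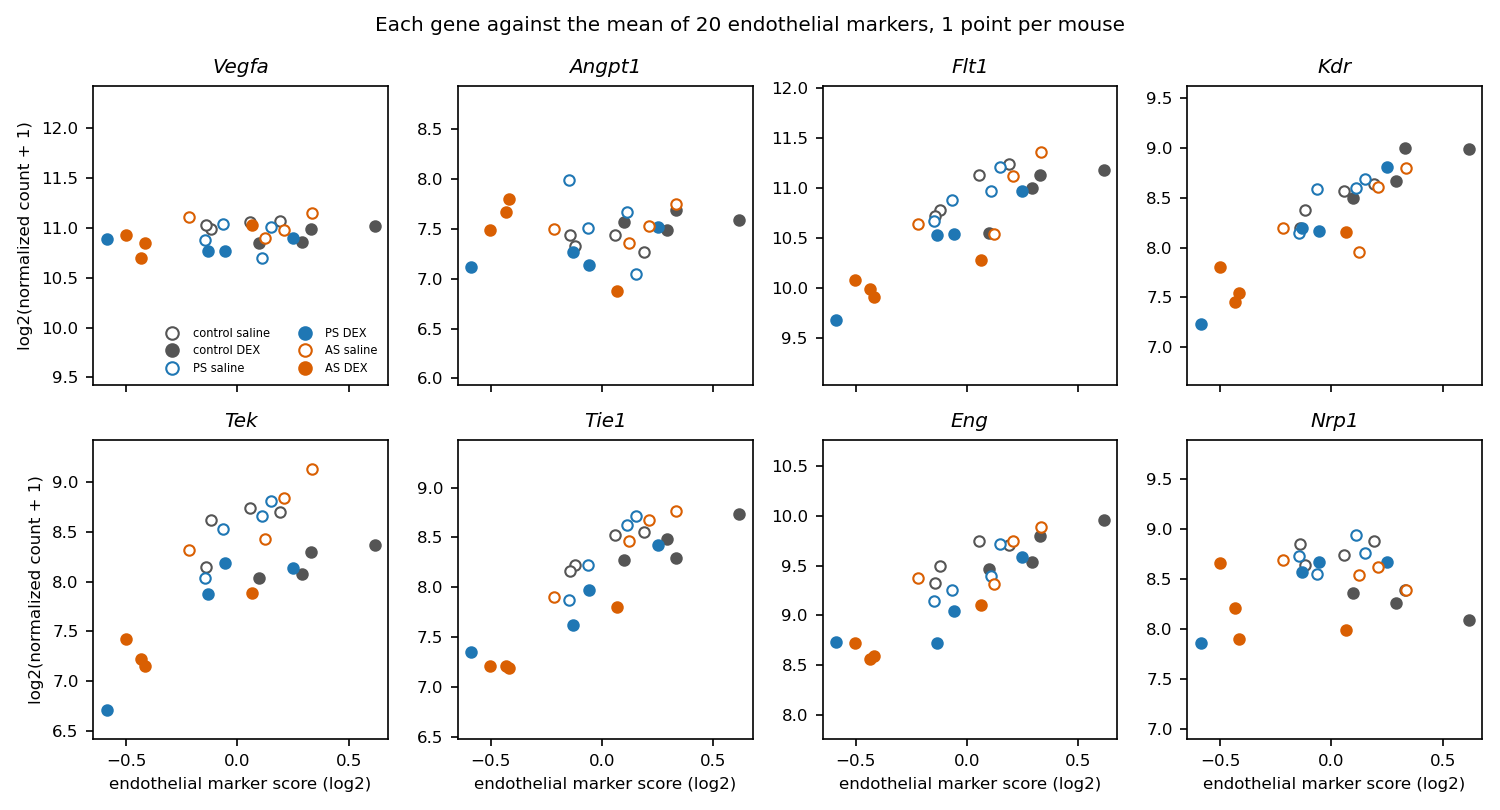
The log2 value of each of 8 genes (vertical axes, each spanning 3 log2 units) against the endothelial marker score of the same mouse (horizontal axis), with open circles for saline and filled circles for DEX. Flt1, Kdr, Tek, Tie1 and Eng rise with the score over the 24 mice, and Vegfa, Angpt1 and Nrp1 show no such line. At a given score, DEX-treated mice of all 3 phenotypes lie low on average for Tek, and by less for Flt1, Tie1 and Eng.

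With the score as a covariate, the fall in AS mice became smaller and stayed past the threshold for 3 of the 4 receptors. Of all 14074 genes, 283 were then called higher and 280 lower in AS mice, against 537 and 697 without the covariate. Tie1 gave -0.52 (adjusted p = 0.0117), Tek -0.64 (adjusted p = 0.0408) and Eng -0.41 (adjusted p = 0.0823). Flt1 gave -0.32 (adjusted p = 0.261) and Kdr -0.07 (adjusted p = 0.942). In PS mice Tek (-0.57, adjusted p = 0.0256) and Tie1 (-0.33, adjusted p = 0.0769) passed. In controls, where the score was higher with DEX, Tek (-0.83, adjusted p = 0.00276), Tie1 (-0.37, adjusted p = 0.0695) and Flt1 (-0.42, adjusted p = 0.0734) now passed, and Nrp1 did not (-0.55, adjusted p = 0.1005). In the interactions, 0 of 8 genes passed with the covariate. The AS against control values of Tek, Flt1 and Kdr turned to 0.20, 0.10 and 0.04. Those of Tie1 and Eng went from -1.18 and -0.95 without it to -0.15 and -0.19 with it (adjusted p = 0.999 for each). Set against the endothelial markers, Tek, Flt1, Tie1 and Eng had lower means with DEX in all 3 phenotypes, and Kdr in PS and AS mice. The log2 ratio of Tek to the mean of the markers ranged from -0.915 to -0.465 in saline-treated and from -1.46 to -1.25 in DEX-treated controls, and from -0.908 to -0.415 and -1.63 to -1.28 in AS mice. In PS mice the ranges were -1.02 to -0.552 and -1.90 to -0.963, and overlapped. For Flt1 they were 1.65 to 1.87 and 1.25 to 1.59 in controls, and 1.62 to 1.86 and 1.06 to 1.52 in PS mice, and overlapped in AS mice. For Tie1 they were -0.903 to -0.737 and -1.24 to -1.02 in controls, and -1.08 to -0.746 and -1.60 to -1.47 in AS mice, and overlapped in PS mice. The covariate was itself measured after DEX and held genes that rose with it, such as Mfsd2a.

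The 5 endothelial receptors also varied together from mouse to mouse. After removal of group means, the 10 pairs among them had Pearson r values of 0.770 to 0.951 over 24 libraries, highest for Flt1 with Kdr. Against these 5, Vegfa had 0.174 to 0.503, Nrp1 0.115 to 0.381 and Angpt1 -0.286 to -0.0221. The genes most alike, by the same measure where the average over libraries reached 100 normalized counts, were Ptprb (0.955) and Podxl (0.950) for Flt1, Nos3 (0.947) and Jag1 (0.917) for Kdr, and Adgrf5 (0.931) and Jag1 (0.912) for Tek. For Tie1 they were Rgs5 (0.961) and Sox17 (0.944), and for Eng Dock6 (0.909) and Adgre5 (0.900). Nrp1 was most like Etv6 (0.790) and Cgn (0.778), Vegfa like Klf10 (0.768) and Rrbp1 (0.752), and Angpt1 like Adra2a (0.853) and Twsg1 (0.813). These genes were picked as the highest of 12018 genes, so the values are upper ends.

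The promoters of the 4 receptor kinases are printed as part of the endothelial receptors that varied together, and Eng is described below without its sequence. Each run has 300 bases of RefSeq (GRCm38.p6), 250 before and 50 after the gene start, 5′ to 3′ on the gene's strand. Capitals mark AGGAAG and CCGGAA, forms of the ETS motif read by endothelial transcription factors, the GC box GGGCGG and the TATA box TATAAA, on either strand.
Flt1 (chr5:147725962-147726261, minus strand): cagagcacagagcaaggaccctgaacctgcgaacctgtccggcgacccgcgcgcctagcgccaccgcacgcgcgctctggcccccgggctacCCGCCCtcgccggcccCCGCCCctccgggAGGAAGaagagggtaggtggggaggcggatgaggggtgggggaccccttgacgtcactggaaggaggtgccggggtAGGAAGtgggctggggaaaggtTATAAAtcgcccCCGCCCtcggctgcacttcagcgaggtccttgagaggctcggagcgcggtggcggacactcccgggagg
Kdr (chr5:75978406-75978705, minus strand): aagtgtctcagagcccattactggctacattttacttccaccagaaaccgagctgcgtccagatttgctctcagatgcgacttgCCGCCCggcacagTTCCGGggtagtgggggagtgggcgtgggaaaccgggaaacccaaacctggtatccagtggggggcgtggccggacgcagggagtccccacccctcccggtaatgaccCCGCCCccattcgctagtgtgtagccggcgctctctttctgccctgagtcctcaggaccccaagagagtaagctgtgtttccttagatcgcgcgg
Tek (chr4:94739039-94739338, plus strand): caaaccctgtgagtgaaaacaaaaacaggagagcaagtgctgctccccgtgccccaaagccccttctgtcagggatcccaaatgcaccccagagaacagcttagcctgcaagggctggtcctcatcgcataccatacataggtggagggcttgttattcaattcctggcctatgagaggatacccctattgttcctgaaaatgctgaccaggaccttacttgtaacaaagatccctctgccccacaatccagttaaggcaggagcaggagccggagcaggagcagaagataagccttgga
Tie1 (chr4:118489800-118490099, minus strand): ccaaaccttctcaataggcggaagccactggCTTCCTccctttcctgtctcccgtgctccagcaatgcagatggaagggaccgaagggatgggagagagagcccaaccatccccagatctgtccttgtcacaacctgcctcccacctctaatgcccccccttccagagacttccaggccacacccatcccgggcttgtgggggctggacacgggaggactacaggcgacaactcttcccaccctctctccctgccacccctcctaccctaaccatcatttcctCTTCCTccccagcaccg
The 4 windows did not share 1 layout. Flt1 had a TATA box 31 bases before the start, AGGAAG at 129 and 53 bases before it, and 3 GC boxes. Kdr had CCGGAA 153 bases before the start and 2 GC boxes, and no TATA box. Tie1 had AGGAAG 219 bases before and 33 bases after its RefSeq start. The GENCODE start of Tie1 is at 118490061, so most of its printed window lies within the gene as placed above. Tek had none of the 4 motifs in its window. The window of Eng, not printed, had AGGAAG 52 and 6 bases before the start, and no CCGGAA, GC box or TATA box. Of 32851 promoters in the same table, 35.4% held AGGAAG, 14.9% CCGGAA, 35.7% the GC box and 13.6% the TATA box. AGAACA, one arm of the glucocorticoid response element, occurred in 19.0% of promoters and in 1 of the 4 printed windows, that of Tek, 158 bases before the start. A match in such a window is a stretch of letters and not a measured site.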

How the data were processed

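Bulk RNA-seq of the PFC of 24 mice was used, 1 library per mouse, from a poly(A) strand-specific kit. The authors trimmed reads with fastp (0.20.1), aligned them with HISAT2 (2.2.1) to mm10 (GRCm38), counted them per gene with featureCounts (Subread 2.0), and deposited a signal, namely gene counts divided by DESeq2 (1.36.0) size factors. Whole reads were recovered for 100% of values (tolerance 0.01), so that depth was known (21121869 to 59439645 reads). The authors' own fold changes and p-values, also deposited, were not used.

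Values were tested as log2(normalized count + 1) with limma (3.58.1, R 4.3.3), 1 mean per group, all 24 libraries and 14074 genes, with Benjamini-Hochberg adjustment and a threshold of 0.1. Fold changes are on this scale. Alternatives were a pseudocount of 8, 2 filters on low values, quantile normalization, library size or endothelial marker covariates, fits of only the groups compared, edgeR (4.0.16) and DESeq2 (1.42.0) on recovered reads, edgeR on reads thinned to 21121869, and leaving out each library. The code was tested on simulated data with 200 genes changed in DEX-treated AS mice. At the threshold of 0.1, false calls for DEX in AS mice were 8.8% with limma, 10.1% with edgeR and 16.1% with DESeq2. For the AS against control interaction they were 8.6%, 8.7% and 14.6%.

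All members were reported. From each list at most the 3 genes with the smallest adjusted p were named per comparison, with Cldn5, Pecam1 and Cdh5 always given, plus the 2 genes most like each member. Tgfbr2, Slc17a7 and Snap25 were named after their values were seen. Members and lists were chosen with earlier results of these data known. Gene positions and exon lengths came from GENCODE (GRCm38), promoters from RefSeq.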

Additional observations from a re-analysis of the deposited data

Results flagged for a closer look

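Among the 48 sets of 4 mice (8 genes in 6 groups), 2 held a mouse far from the other 3 by Dixon's criterion at the 95% level, which chance alone meets in about 1 of 20 sets. Tie1 in DEX-treated AS mice was at 222 normalized counts in mouse 60 and between 145 and 148 in the other 3. Nrp1 in DEX-treated PS mice was at 231 normalized counts in mouse 34 and between 379 and 408 in the other 3. Mouse 34 also had the lowest value of its group for Flt1 (819.5), Kdr (149.9), Tek (104) and Tie1 (162). Its endothelial and mural marker scores, mean log2 levels relative to the 24 libraries, were also the lowest of its group, at -0.588 (-0.132 to 0.250 in the other 3) and -0.740 (-0.318 to 0.309). Mouse 60 had the highest scores of its group, at 0.0656 for endothelial markers (-0.502 to -0.417 in the other 3) and -0.347 for mural markers (-0.557 to -0.410). The part of these markers in the Tie1 and Nrp1 values was not tested.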

How the results depend on the processing

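The 4 calls in DEX-treated AS mice were made again in each of the 24 fits without 1 library, which called 4 to 6 genes (Kdr added in 4 fits and Nrp1 in 2), and 3 to 5 genes were called there over the other alternatives. Of all genes, 345 to 1128 were called lower in AS mice in the fits without 1 library. Over the other alternatives this number ran from 280 (endothelial covariate) to 905 (DESeq2). In PS mice 0 genes were called with quantile normalization, 0 with only the groups compared and 0 with edgeR, and 2 with the endothelial covariate. With that covariate 402 of all 14074 genes were called higher and 343 lower in PS mice. In controls 3 were called with that covariate, where 385 of all genes were called higher and 230 lower. In the AS against control interaction 2 were called with only the groups compared, 3 with DESeq2 and 1 on thinned reads. Of all genes, 0.583%, 3.18% and 0.917% were called in these 3 fits. Without 1 library the counts were 0 to 1 in controls (0 without the saline controls 107, 109 or 117 or the DEX controls 101 or 108), 0 to 4 in PS mice and 0 to 4 in that interaction, with the libraries named above. Over these fits 198 to 400 of all genes were called lower in controls and 218 to 428 in PS mice. In that interaction 0.0284% to 4.87% of all genes were called. The cause of these changes was not tested. The other 5 comparisons called 0 in all alternatives. Sign changes concerned values that had not passed the threshold, and of the changed values Tie1 for DEX in controls with the endothelial covariate passed it. With the endothelial covariate they were, in log2, -0.039 (Tek), -0.068 (Tie1) and -0.10 (Eng) for AS against control saline mice, -0.039 (Tie1) for AS against PS saline mice, -0.11 (Kdr), -0.37 (Tie1) and -0.21 (Eng) for DEX in controls, 0.088 (Flt1), 0.26 (Tek), 0.044 (Tie1) and 0.00082 (Eng) for the PS against control interaction, 0.037 (Vegfa), 0.10 (Flt1), 0.040 (Kdr) and 0.20 (Tek) for the AS against control interaction, and 0.011 (Flt1) and 0.14 (Kdr) for AS against PS. With library size as a covariate Flt1, Tek and Tie1 gave 0.0013, 0.0044 and 0.054 for PS against control saline mice, and Flt1 gave 0.00088 for DEX in controls. For that last value quantile normalization gave 0.011, edgeR 0.0039, DESeq2 0.0027 and thinned reads 0.015. Tie1 for PS against control saline mice gave 0.023 with edgeR, 0.018 with DESeq2 and 0.020 on thinned reads. Flt1 for AS against PS saline mice gave 0.0068 with DESeq2 and 0.016 on thinned reads, and Vegfa for AS against control saline mice gave 0.019 with quantile normalization.

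Leaving out 1 library changed the sign of values with these ranges. For PS against control saline mice they were -0.12 to 0.060 (Flt1), -0.029 to 0.17 (Kdr), -0.18 to 0.11 (Tek), -0.13 to 0.15 (Tie1) and -0.098 to 0.029 (Nrp1). For AS against control saline mice they were -0.043 to 0.041 (Vegfa), -0.20 to 0.075 (Flt1), -0.19 to 0.088 (Kdr), -0.025 to 0.24 (Tek), -0.020 to 0.27 (Tie1) and -0.094 to 0.096 (Eng). For AS against PS saline mice they were -0.19 to 0.12 (Angpt1), -0.17 to 0.11 (Flt1), -0.25 to 0.034 (Kdr) and -0.069 to 0.28 (Tie1). With DEX they were -0.083 to 0.14 (Flt1) and -0.014 to 0.14 (Tie1) in controls and -0.19 to 0.12 (Angpt1) in AS mice. In the interactions they were -0.038 to 0.077 (Vegfa, PS against control), -0.10 to 0.0094 (Vegfa) and -0.025 to 0.23 (Nrp1) for AS against control, and -0.26 to 0.028 (Nrp1) for AS against PS. None of these values had passed the threshold.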
